A study of Mus musculus with 10 samples.

Results

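The nuclear genes for oxidative phosphorylation were taken as the protein-coding rows whose name starts with Nduf, Uqcr, Atp5 or Cox followed by a digit of 4 to 8, or is Sdha, Sdhb, Sdhc or Sdhd. The rule found 92 of 54987 genes, among 22058 that code for protein. By the textbook place of their products, 36 belong to complex I, 4 to complex II, 8 to complex III, 19 to complex IV, 15 to ATP synthase and 10 to assembly and related functions. Of the complex IV genes, 8 encode tissue-specific isoforms (Cox4i2, Cox6a2, Cox6b2, Cox7a1, Cox7b2, Cox8b, Cox8c and Ndufa4l2) and were kept apart from the 11 general subunits. The tissue was the popliteal lymph node, to which the hind paw drains, of male BALB/c mice aged 6 to 8 weeks, and its labels give day 15. The Acu group (n = 3, libraries 4, 6 and 28) received 0.1 ml of complete Freund's adjuvant in a hind paw together with acupuncture, given at ST36 going by the title of the series. The AIA group (n = 4, libraries 5, 10, 31 and 38) received the adjuvant without acupuncture, and the Control group (n = 3, libraries 15, 16 and 17) received saline. Whether the libraries are from separate mice is not stated, so a p-value here reflects only how far the libraries of a group spread.

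Oxidative phosphorylation is the route by which mitochondria make ATP. Complexes I and II pass electrons to ubiquinone, complex III passes them on through cytochrome c, complex IV hands them to oxygen, and ATP synthase uses the proton gradient that complexes I, III and IV build. Most subunits come from nuclear genes and a core few from mitochondrial DNA, and muscle, heart and brown fat carry far more of the machinery than resting lymphocytes do. Some complex IV subunits exist in a widely expressed form and a form restricted to contractile or heat-producing tissue, and lymphocytes raise mitochondrial biogenesis when they are activated.

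The deposited values are labelled FPKM, by definition fragments scaled to gene length and to the reads of the library. They were already even between libraries by median-ratio scaling (factor 0.996 in all 10), so they need not be amounts per read. The reads behind them ranged from 13269763 in AIA 10 to 18926894 in Control 15. The libraries labelled Control 17 and Acu 4 went against the labelled tissue. Prl8a2, a prolactin-family gene of the decidua, stood at 3901 FPKM in Acu 4 and 10739 FPKM in Control 17, and Cd79a, a part of the B cell receptor, at 0.517 and 0.626 FPKM in those libraries. Control 15 also lacked lymphocyte genes (Cd79a 2.09 FPKM), whereas Control 16 had them (307 FPKM). Fat and muscle markers were not even across libraries either. The mean log2(FPKM + 1) of 14 adipocyte markers was at most 3.85 in the Acu libraries and 3.91 in the AIA libraries, against 9.87 in Control 15, 7.90 in Control 16 and 1.41 in Control 17. That of 20 skeletal muscle markers was highest at 5.00 in Acu 28 among the Acu libraries and at 4.91 in AIA 31 among the AIA libraries, against 5.80 in Control 15, 7.40 in Control 16 and 0.66 in Control 17. All 14 adipocyte markers were above 1 FPKM in Control 15 and in Control 16. In whole-tissue RNA, fewer cells of a type and less RNA per cell cannot be told apart. Each comparison is therefore given over all 10 libraries and again without the libraries labelled Control 17 and Acu 4, which leaves 2 Control and 2 Acu libraries.

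Of the 92 genes, 89 reached the level required for testing, which was 0.5 FPKM or more in 3 or more libraries. Cox7b2 and Cox8c, testis isoforms of complex IV subunits, were listed at 0 in all 10 libraries. Ndufs3, a core complex I subunit, was listed at 0 in 8 libraries and reached 0.891 FPKM in AIA 10. The summed FPKM of all 92 genes was 4818.5, 3940.5 and 4921 in Acu 4, 6 and 28, and 4338, 14671, 4489.9 and 4816 in AIA 5, 10, 31 and 38. It was 17803, 10416 and 4260.4 in Control 15, 16 and 17. Control 15, Control 16 and AIA 10 thus stood apart, and the other 7 libraries lay close together whatever their group, the library with decidual genes in Control included. As a share of the FPKM of all protein-coding nuclear genes, the 92 genes took 1.28%, 1.85% and 2.09% in the Acu libraries, 1.82%, 3.16%, 1.95% and 1.81% in the AIA libraries and 5.64%, 4.31% and 1.20% in the Control libraries. The highest value of a gene fell in Control 15 for 57 of the 89 genes, in AIA 10 for 26, in Control 16 for 5 and in Control 17 for 1. Control 15, Control 16 and AIA 10 were the 3 highest libraries for 63 of the 89.

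**Figure D1:**
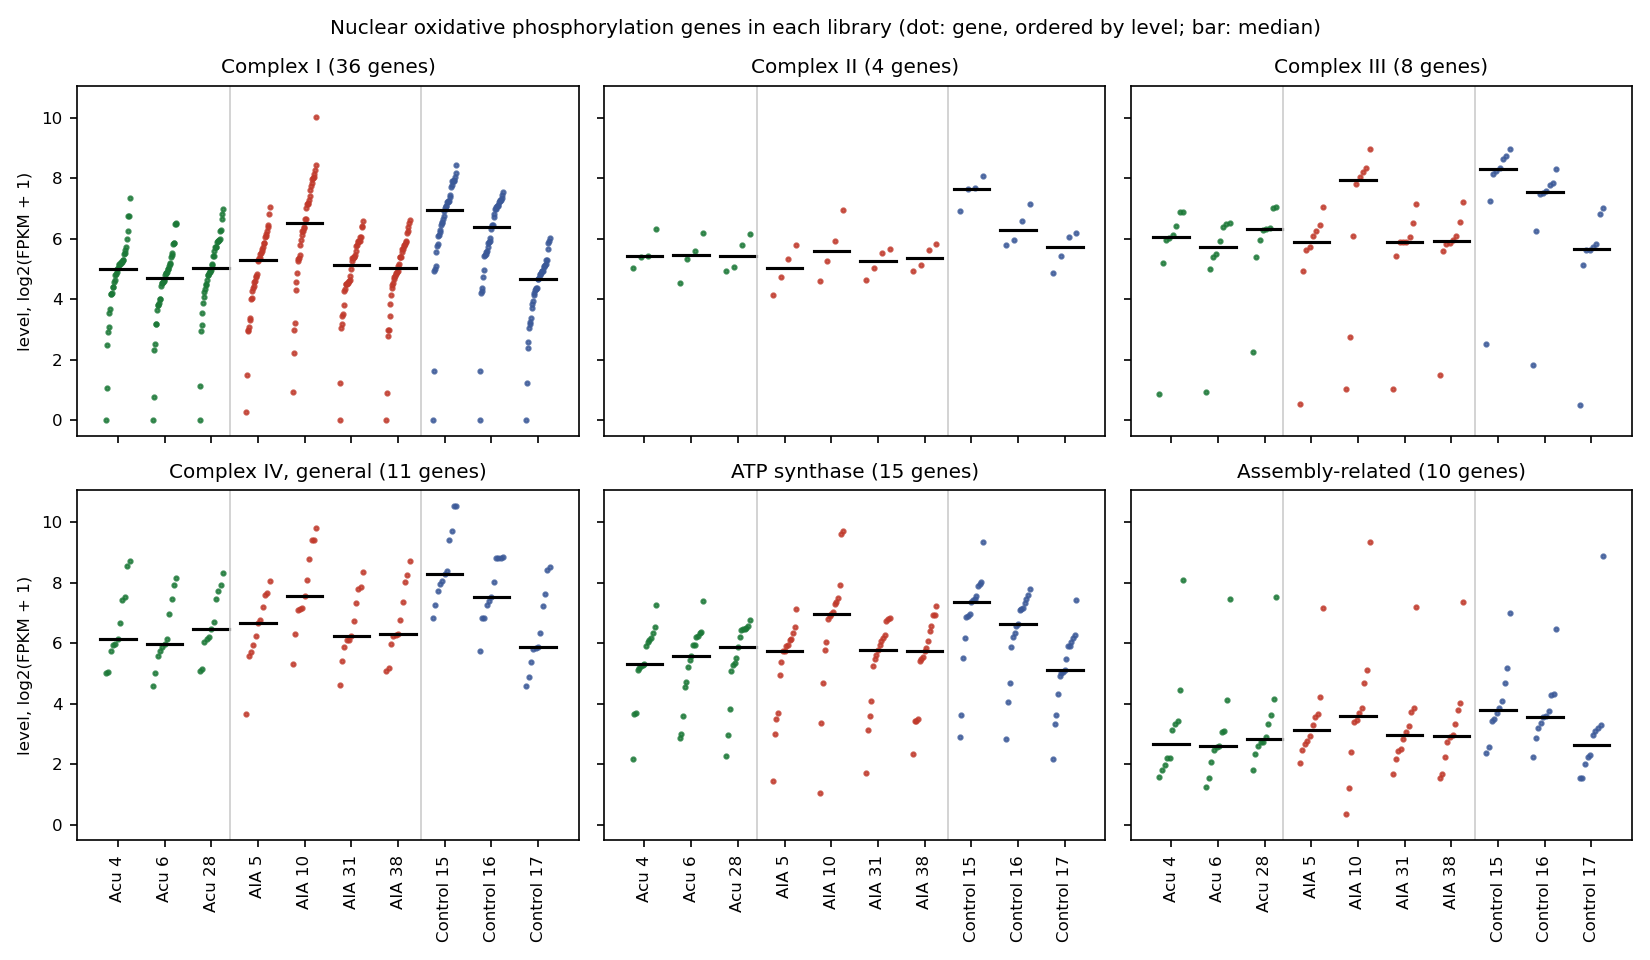
Level of each gene, as log2(FPKM + 1), in each library, by complex. Dots are genes ordered by level, bars are medians, and grey lines part the Acu, AIA and Control libraries. The median of complex I genes was 90.7 FPKM in AIA 10, 124 FPKM in Control 15 and 82.0 FPKM in Control 16, against 24.2 to 38.1 FPKM in the other 7 libraries.

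Complex I took 27.3%, 27.6% and 30.0% of the summed FPKM in the Acu libraries, 28.1% to 35.4% in the AIA libraries and 20.7% to 29.8% in the Control libraries. General complex IV subunits took 25.2% to 34.2% over the 10 libraries, ATP synthase 14.5% to 20.3%, complex III 11.01% to 13.4% and complex II 1.66% to 4.85%. The tissue-specific isoforms ranged more, from 0.327% in AIA 5 to 8.90% in Control 16. Since FPKM is per length, levels can be set side by side between genes, with the limit that the deposited gene length was 0.958 to 11.8 times the length of the main annotated mRNA (median 1.42). Cox8a and Cox6a1, small complex IV subunits, had the highest means over all libraries, and Cox8a stood at 374, 282 and 321 FPKM in the Acu libraries, at 262, 189, 327 and 416 FPKM in the AIA libraries and at 1470.1, 446 and 369 FPKM in the Control libraries. Atp5b, the catalytic beta subunit of ATP synthase, had 152, 167 and 107 FPKM in the Acu libraries, 69.1, 179, 109.98 and 149 FPKM in the AIA libraries and 643, 219.7 and 170.4 FPKM in the Control libraries. Both genes were highest in Control 15, and the groups overlapped.

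Subunits that sit in a complex in equal number did not have equal FPKM. Atp5a1, the alpha subunit that alternates with Atp5b in the catalytic head, had 1.07 to 11.4 FPKM over the 10 libraries. Uqcrc1, a core protein of complex III, had 0.425 to 4.68 FPKM, against 5.67 to 151 FPKM for its partner Uqcrc2. Ndufb2, an accessory complex I subunit, had 0.719 to 3.68 FPKM. These genes share 0% to 7.94% of their exon bases with another annotated gene, and what sets their low deposited values was not tested. Ndufab1, the acyl carrier protein of complex I, had 4.20 to 30.99 FPKM, while its processed pseudogene Ndufab1-ps reached 107 FPKM, so the value of Ndufab1 is uncertain. Of the 92 genes, 12 share at least 10% of their exon bases with another annotated gene. Among them are Ndufa13, Ndufa2, Cox6a2 and Uqcrc2, whose values are uncertain in that respect.

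Of the tissue-specific isoforms of complex IV, those of muscle and brown fat had the widest range between libraries. Cox8b, the form of subunit 8 found in heart, muscle and brown fat, had 0.523, 24.8 and 61.3 FPKM in Acu 4, 6 and 28. It had 0.379, 51.7, 22.0 and 3.76 FPKM in AIA 5, 10, 31 and 38, and 684, 439 and 0.181 FPKM in Control 15, 16 and 17. Control 15 and Control 16 were far above every other library, and Control 17 was the lowest of all. Cox8b made up 0.140% to 16.03% of the Cox8a and Cox8b pair in the Acu libraries and 0.144% to 21.5% in the AIA libraries, against 31.7% in Control 15, 49.6% in Control 16 and 0.0490% in Control 17.

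Cox7a1, the heart and muscle form of subunit 7a, had 0.939, 7.10 and 21.2 FPKM in the Acu libraries, 0.765, 13.7, 16.4 and 2.75 FPKM in the AIA libraries and 135, 126 and 1.22 FPKM in the Control libraries. It made up at most 24.8% of its pair with Cox7a2 in the Acu libraries and 19.4% in the AIA libraries, against 33.8% in Control 15, 52.5% in Control 16 and 2.13% in Control 17. Cox6a2, the muscle form of subunit 6a, had 0, 16.5 and 44.0 FPKM in the Acu libraries, 5.21, 13.9, 47.0 and 11.9 FPKM in the AIA libraries and 86.3, 339 and 0 FPKM in the Control libraries. Cox6a2 was therefore highest in Control 16, the library with the highest muscle markers, whereas Cox8b was highest in Control 15, the library with the highest fat markers. Ckm, the muscle creatine kinase, stood at 180.3 FPKM in Control 15 and 513 FPKM in Control 16. Ucp1, the uncoupling protein of brown fat, had at most 1.84 FPKM in the Acu libraries and 1.24 FPKM in the AIA libraries, against 199 FPKM in Control 15, 27.4 FPKM in Control 16 and 0 FPKM in Control 17. Of 8 brown fat markers, 7 were above 1 FPKM in Control 15 and 5 in Control 16. At most 3 were in any Acu or AIA library, and 1 was in Control 17. Not all followed Ucp1: Prdm16 was highest in Control 17 (4.47 FPKM) and Dio2 in Acu 4 (3.89 FPKM). Zic1 was listed at 0 in all 10 libraries. The part of muscle and fat RNA in these isoform values was not tested.

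Ndufa4l2, a relative of the complex IV subunit Ndufa4 that is known to rise under low oxygen, had 66.2, 1.53 and 2.50 FPKM in Acu 4, 6 and 28, 2.49, 12.6, 2.62 and 1.67 FPKM in AIA 5, 10, 31 and 38, and 30.2, 11.5 and 68.2 FPKM in Control 15, 16 and 17. It was highest in the 2 libraries with decidual genes, where it made up 52.2% (Acu 4) and 55.6% (Control 17) of its pair with Ndufa4, against 2.45% to 8.26% in the other 8. Cox4i2, the lung form of subunit 4, stayed low, at 1.99 to 3.73 FPKM in the Acu libraries, 3.50 to 9.29 FPKM in the AIA libraries and 1.90 to 13.9 FPKM in the Control libraries. Cox6b2, a testis form of subunit 6b, had 0.809 to 2.66 FPKM in the Acu libraries, 0 to 1.11 FPKM in the AIA libraries and 2.39 to 5.65 FPKM in the Control libraries, with no overlap between AIA and Control. Both Cox4i2 and Cox6b2 were highest in Control 15.

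**Figure D2:**
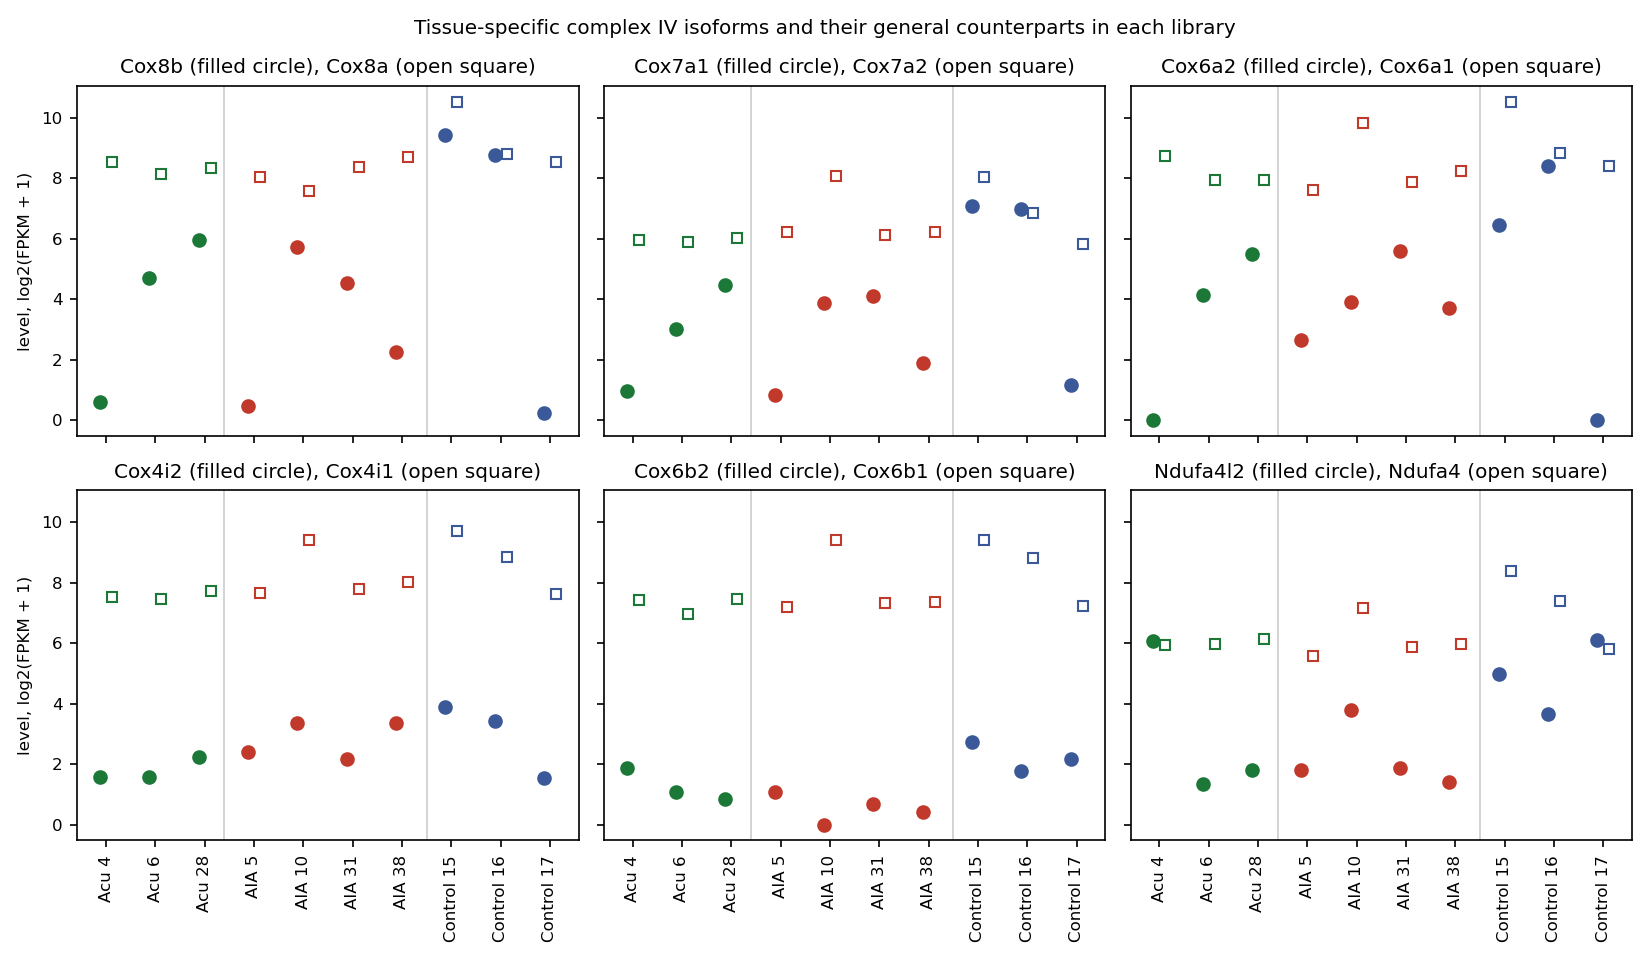
Level of 6 tissue-specific complex IV isoforms (filled circles) and of their general counterparts (open squares), as log2(FPKM + 1), in the Acu, AIA and Control libraries. Cox8b, Cox7a1 and Cox6a2 were high in Control 15 and Control 16 and lowest or near lowest in Control 17, and Ndufa4l2 was high in Acu 4 and Control 17.

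Promoters are shown for 3 general subunits, of complexes I, II and IV, and for 2 isoforms restricted to muscle and fat. All 3 general ones hold the NRF1 motif, which only 20 of the 77 windows of general genes hold, so they do not stand for the set. Each line gives the 150 bases before the annotated start on the strand of the gene, from RefSeq in GRCm38.p6. The places are chr16:37654369-37654518 (minus strand) for Ndufb4, an accessory subunit of the complex I membrane arm, chr9:50603850-50603999 (minus) for Sdhd, a membrane anchor of complex II, and chr5:115348959-115349108 (minus) for Cox6a1. Those of the isoforms are chr7:30184021-30184170 (plus) for Cox7a1 and chr7:140900447-140900596 (minus) for Cox8b. Capitals mark matches on either strand to the NRF1 motif (GCGCA and GCGC with any 1 base between them), the ETS motif (CCGGAAG), the estrogen-related receptor motif (AAGGTCA) or the E-box (CAGCTG).
Ndufb4: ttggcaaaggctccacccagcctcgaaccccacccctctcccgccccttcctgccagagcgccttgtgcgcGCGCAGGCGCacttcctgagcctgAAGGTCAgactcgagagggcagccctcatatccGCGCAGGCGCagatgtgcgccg
Sdhd: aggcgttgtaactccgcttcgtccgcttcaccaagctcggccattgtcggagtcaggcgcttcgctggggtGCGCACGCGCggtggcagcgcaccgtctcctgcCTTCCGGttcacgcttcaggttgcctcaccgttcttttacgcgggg
Cox6a1: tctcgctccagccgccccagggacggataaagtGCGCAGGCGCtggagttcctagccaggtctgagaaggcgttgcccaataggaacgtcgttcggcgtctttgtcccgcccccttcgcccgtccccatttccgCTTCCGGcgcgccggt
Cox7a1: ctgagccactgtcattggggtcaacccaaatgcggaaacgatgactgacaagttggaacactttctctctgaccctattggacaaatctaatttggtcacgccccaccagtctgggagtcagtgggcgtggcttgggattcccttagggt
Cox8b: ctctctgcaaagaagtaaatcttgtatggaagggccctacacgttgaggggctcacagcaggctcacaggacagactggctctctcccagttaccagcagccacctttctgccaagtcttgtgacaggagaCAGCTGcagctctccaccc
RefSeq promoter windows, from 250 bases before to 50 bases after the start, were matched for 76 of the 92 genes, 2 of them by gene ID, in 81 windows. The NRF1 motif was present in 26.0% of the 77 windows of general genes and in 4.60% of all 32851 windows of the table. The ETS motif was present in 23.4% against 8.86%, the YY1 motif (AAGATGGCG) in 10.4% against 1.40% and the estrogen-related receptor motif in 10.4% against 4.72%. The TATA motif (TATAAA) was present in 7.79% against 13.6% and the E-box in 6.49% against 16.3%. Both strands were searched, and a match describes letters, not binding. None of these first 4 motifs was found in the 4 windows of tissue-specific isoforms, which is too few to compare. The TATA motif was found in 2 of those 4 windows and the E-box in 1.

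For AIA against Control, most of the genes stood lower in AIA, and none passed the threshold over all 10 libraries. Of the 89 genes 78 stood lower and 11 higher, and their median log2 fold change was -0.51, against -0.07 over all 17010 genes tested. With limma and a Benjamini-Hochberg adjusted p under 0.05, 0 of the 89 genes were called, where 0.0235% of all genes were. At an unadjusted p under 0.05 the count was 9, all lower, against 13.4% of all genes in that direction, and limma voom on reads recovered from the FPKM called 0 of the 89 and 0% of all genes, with 11 of the 89 at an unadjusted p under 0.05, all lower, against 12.7% of all genes. The AIA and Control libraries did not overlap for 4 genes, all lower in AIA (Cox6b2, Sdha, Sdhd and Ndufs1), against 13.8% of all genes. Cox6b2 had the lowest adjusted p (log2 fold change -1.68, SE 0.38, limma adjusted p = 0.0693).

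Without the libraries labelled Control 17 and Acu 4, 16 of the 89 genes fell in AIA and 0 rose, where limma called 13.5% of 16067 genes, 9.2% of them in the lower direction. The median log2 fold change was -1.17, against -0.01 over all genes, with 87 genes lower and 2 higher. At an unadjusted p under 0.05 there were 44, all lower, against 17.6% of all genes in that direction, and 40 did not overlap in that direction, against 21.2%. Of the 16, 6 belong to complex I, 3 to complex II, 1 each to complex III, general complex IV and ATP synthase, and 4 are tissue-specific isoforms. These calls rest on 2 Control libraries, and adipocyte and muscle markers moved with them: limma called 13 of 13 adipocyte markers tested and 8 of 19 muscle markers lower in AIA in the same fit. It also called 4 of 5 erythroid markers lower, and 12 of 12 markers of cycling cells and 8 of 10 of plasma cells higher in AIA. Of 8 macrophage markers tested, 2 were called higher and 1 lower. Of 10 B cell and 12 T cell markers 0 were called, at median log2 fold changes of 2.60 and 2.59. The mix of cells in the Control libraries and the treatment cannot be told apart. When Control 15 was also left out, 0 of the 89 genes were called by limma (17 at an unadjusted p under 0.05, all lower, against 10.4% of all genes in that direction), where 3.1% of all genes were, and the median was -0.91. Control 16 was then the only Control library, so this last fit cannot show whether the 16 calls hold. Voom was not run on these subsets.

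Complex II was the complex with the largest share of calls in the fit without Control 17 and Acu 4. There limma called 3 of its 4 genes lower (Sdha, Sdhd and Sdhc), against 9.2% of all genes, so the share rests on few genes. Sdha, the flavoprotein that oxidizes succinate, had 16.8, 23.5, 23.6 and 29.8 FPKM in AIA 5, 10, 31 and 38, against 199, 54.5 and 41.8 FPKM in Control 15, 16 and 17. Every AIA library lay below every Control library, including the one with decidual genes. The log2 difference was -1.70 (SE 0.50, limma adjusted p = 0.0997) over all 10 libraries and -2.15 (SE 0.51, limma adjusted p = 0.0310) without Control 17 and Acu 4. Sdhd, a membrane anchor, had 39.0, 60.3, 45.1 and 55.9 FPKM in AIA, against 270.3, 95.8 and 65.6 FPKM in Control, and the groups did not overlap either. The difference was -1.26 on the log2 scale (SE 0.45, limma adjusted p = 0.139) over 10 libraries and -1.70 (SE 0.45, limma adjusted p = 0.0437) without the 2. Sdhc, the other anchor, had 25.6, 37.5, 31.6 and 33.6 FPKM in AIA, against 119, 61.3 and 28.2 FPKM in Control, where Control 17 fell among the AIA libraries. Sdhb, the iron-sulfur subunit, had 54.3, 122.7, 49.1 and 48.4 FPKM in AIA, against 202, 139 and 71.3 FPKM in Control, and was not called in either fit (limma adjusted p = 0.210 and 0.0833).

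In complex I, Ndufs1, the iron-sulfur subunit of the electron input module, had 7.53, 6.96, 8.07 and 5.85 FPKM in AIA, against 33.0, 17.3 and 8.51 FPKM in Control. The groups did not overlap, and the log2 difference was -1.17 (SE 0.40, limma adjusted p = 0.125) over 10 libraries and -1.64 (SE 0.32, limma adjusted p = 0.0150) without Control 17 and Acu 4. Ndufv1, which binds NADH and the flavin, had 15.3, 43.5, 19.3 and 22.2 FPKM in AIA, against 148, 64.1 and 19.6 FPKM in Control. Control 17 lay inside the AIA range, and the call without it and Acu 4 came at a log2 fold change of -2.04 (SE 0.49, limma adjusted p = 0.0313). Also called in complex I were Ndufb4, Ndufa10 and Ndufb8, accessory subunits of the membrane arm, with log2 fold changes of -1.44, -1.35 and -1.72 (limma adjusted p = 0.0259, 0.0347 and 0.0398). The 29 complex I genes tested that were not called stood lower, by -0.15 (Ndufb2) to -1.78 (Ndufa12) on the log2 scale.

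Uqcrfs1, the Rieske iron-sulfur protein of complex III, had the lowest adjusted p of the 89 genes without the 2 libraries. It had 48.4, 67.6, 58.9 and 67.1 FPKM in AIA, against 401, 183 and 55.9 FPKM in Control. Only Control 17 overlapped with AIA, and the log2 difference was -1.40 (SE 0.56, limma adjusted p = 0.165) over 10 libraries and -2.17 (SE 0.41, limma adjusted p = 0.0133) without Control 17 and Acu 4. Cox5b, a general complex IV subunit, had 60.1, 77.4, 67.6 and 75.7 FPKM in AIA, against 211, 153 and 40.1 FPKM in Control, and was called without the 2 at -1.36 (SE 0.35, limma adjusted p = 0.0398). In ATP synthase Atp5a1 was called, at -1.61 (SE 0.42, limma adjusted p = 0.0397), on low levels of 1.07 to 4.02 FPKM in AIA, against 3.45 to 11.4 FPKM in Control. Atp5k, subunit e of the membrane part, had the most negative value of ATP synthase in both fits without being called (log2 fold changes -1.67 and -2.57, limma adjusted p = 0.271 and 0.0934).

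Of the 6 isoforms tested, limma called 4 lower in AIA than in Control without Control 17 and Acu 4, against 9.2% of all genes. Without the 2 libraries Cox8b fell by 5.86 on the log2 scale (SE 1.28, limma adjusted p = 0.0224), Cox7a1 by 4.36 (SE 0.91, limma adjusted p = 0.0195), Cox6a2 by 3.48 (SE 0.86, limma adjusted p = 0.0333) and Cox6b2 by 1.71 (SE 0.38, limma adjusted p = 0.0236). Over all 10 libraries none of these passed, and for Cox8b the value was -2.91 (SE 2.24, limma adjusted p = 0.429). The general counterparts Cox8a, Cox7a2 and Cox6a1 stood at -1.51, -0.79 and -1.30 without being called. Among the 10 assembly and related genes none was called in either fit.

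Cox7a2l, which helps to join complexes III and IV into supercomplexes, was the only gene whose AIA libraries all lay above Control 15 and Control 16. It had 142, 651, 144 and 164 FPKM in AIA, against 127.5, 86.4 and 466 FPKM in Control. The Control library with decidual genes was above all AIA libraries except AIA 10. The log2 difference was 0.32 (SE 0.70, limma adjusted p = 0.791) over 10 libraries and 1.02 (SE 0.66, limma adjusted p = 0.337) without Control 17 and Acu 4, where 1 gene of the 89 did not overlap in the higher direction against 17.8% of all genes.

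**Figure D3:**
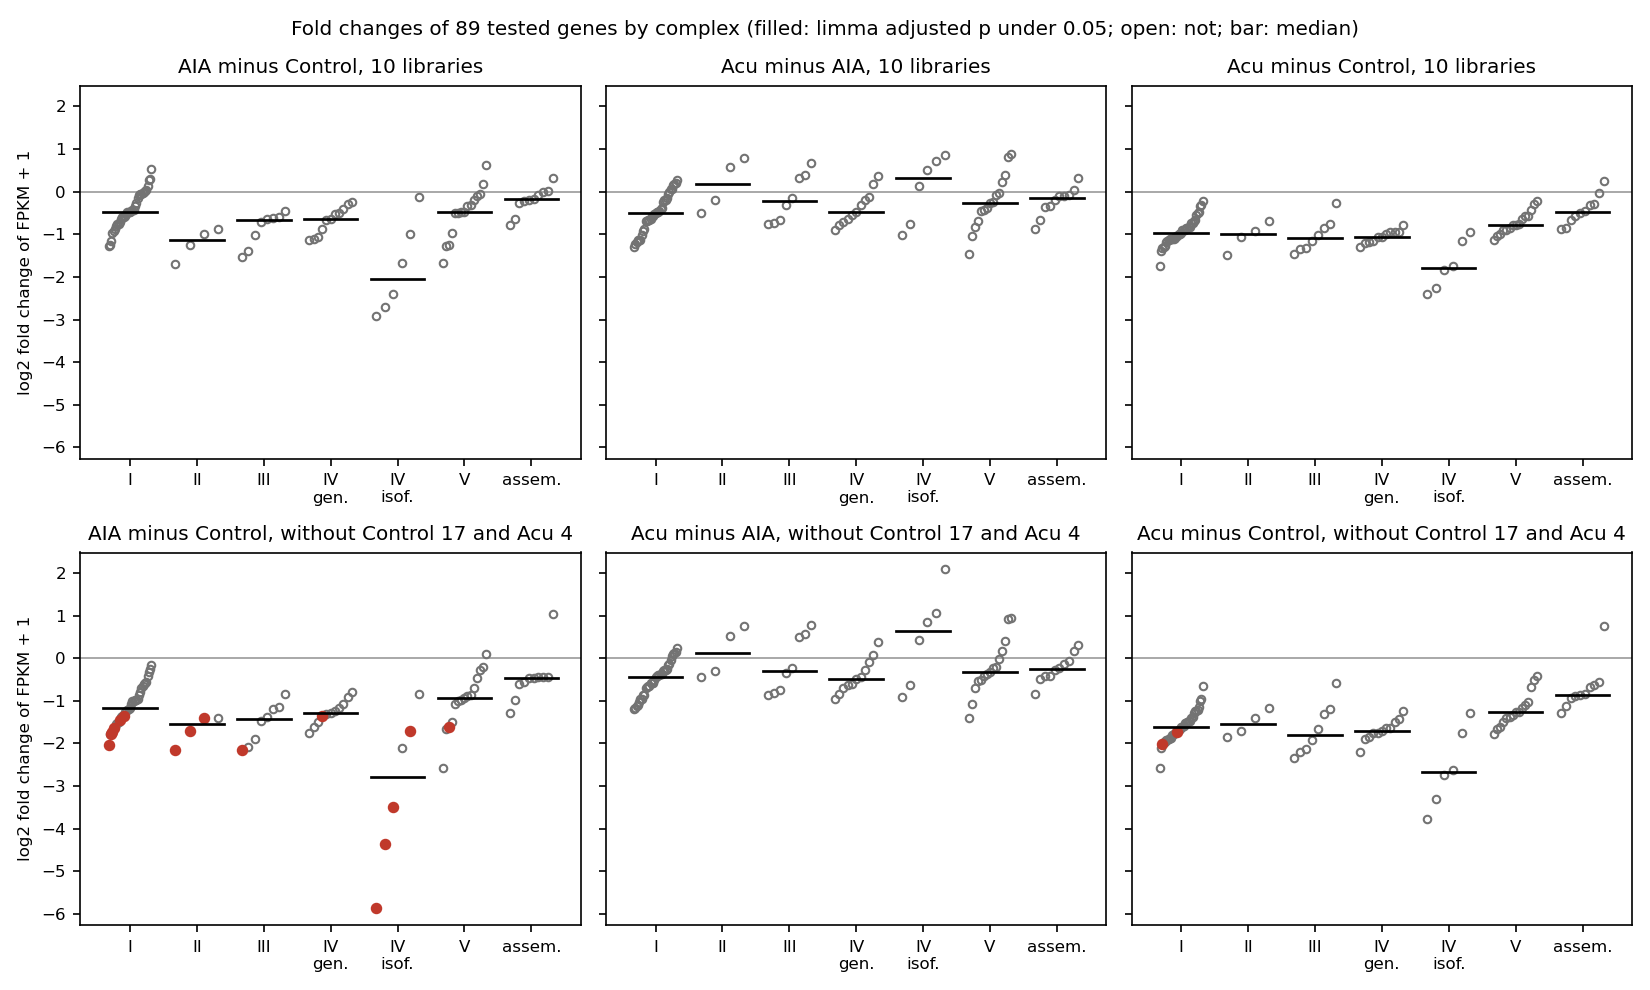
Log2 fold change of FPKM + 1 of the 89 genes tested, by complex, for 3 comparisons, over all 10 libraries (upper row) and without Control 17 and Acu 4 (lower row). Filled dots passed a limma adjusted p under 0.05 and bars are medians. No gene was filled in the upper row, 16 were in the AIA minus Control panel of the lower row and 2 in its Acu minus Control panel.

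For Acu against AIA, the acupuncture comparison, no gene was called. Limma called 0 of the 89 genes and 0% of the 17010 genes tested, 0 of the 89 had an unadjusted p under 0.05 (4.7% of all genes did), and voom called 0, with 0 of the 89 at an unadjusted p under 0.05 against 4.07% of all genes. The median log2 fold change was -0.37, with 66 genes lower and 23 higher, against 0.08 over all genes. The groups did not overlap for 15 genes lower in Acu, against 5.1% of all genes, and for 3 higher in Acu, against 6.04% of all genes. Without the libraries labelled Control 17 and Acu 4 limma again called 0 of the 89, with 0 at an unadjusted p under 0.05 (2.99% of all genes), and the median was -0.38. There 18 genes did not overlap in the lower direction, against 7.66% of all genes, and 3 in the higher one, against 9.44%. When AIA 10 was left out as well, an alternative added after the data were seen, the median was -0.12.

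The largest negative values were those of Atp5h, Ndufb7 and Ndufs8. Atp5h, subunit d of the ATP synthase stalk, had 64.4, 59.6 and 88.5 FPKM in Acu 4, 6 and 28, against 138, 781, 112 and 119.7 FPKM in AIA 5, 10, 31 and 38. Every Acu library was below every AIA library, and AIA 10 stood far above the rest. The log2 difference was -1.47 (SE 0.71, limma adjusted p = 0.746). Ndufs8, a core subunit that carries iron-sulfur clusters towards ubiquinone, had 38.3, 56.6 and 76.2 FPKM in Acu, against 130.5, 259, 84.7 and 97.9 FPKM in AIA. Its groups did not overlap, with a log2 fold change of -1.22 (SE 0.63, limma adjusted p = 0.746). Ndufb7, an accessory complex I subunit, had 10.7, 11.5 and 17.9 FPKM in Acu, against 23.0, 129, 21.5 and 19.5 FPKM in AIA, also without overlap (-1.30, SE 0.73, limma adjusted p = 0.746).

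Of the 89 genes 3 had every Acu library above every AIA library, against 6.04% of all genes. They were Sdha, Sdhd and Uqcrfs1. Sdha had 42.6, 46.8 and 32.7 FPKM in Acu, against 16.8 to 29.8 FPKM in AIA, with a log2 fold change of 0.78 (SE 0.50, limma adjusted p = 0.746). Sdhd had 79.6, 72.7 and 70.2 FPKM in Acu, against 39.0 to 60.3 FPKM in AIA, with a log2 fold change of 0.58 (SE 0.45, limma adjusted p = 0.746). Uqcrfs1 had 68.8, 87.7 and 81.6 FPKM in Acu, against 48.4 to 67.6 FPKM in AIA (0.39, SE 0.56, limma adjusted p = 0.826). The 3 genes were picked by this order, so that it holds in each Acu library follows from the choice. None of the differences exceeded the spread between libraries by limma. Cox8b, Cox7a1 and Cox6a2 overlapped between Acu and AIA, with log2 fold changes of 0.51 (SE 2.24), 0.13 (SE 1.49) and -0.75 (SE 1.89), and the muscle markers stood at a median of 0.42 in the same fit. Without Control 17 and Acu 4 the values were 2.08 (SE 1.28), 1.06 (SE 0.91) and 0.86 (SE 0.86), each with a limma adjusted p of 0.984. In that fit the muscle markers stood at a median of 2.32 and the adipocyte markers at 1.25, and limma called 0 of either list.

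Acu against Control shares its Control libraries with the AIA comparison, and its Acu libraries with the acupuncture one, so its values are given beside them and not as separate support. Over 10 libraries limma called 0 of the 89 genes and 0% of all genes. At an unadjusted p under 0.05 there were 6 genes, all lower in Acu, against 4.2% of all genes in that direction, and voom called 0, with 5 at that p, all lower, against 3.66%. The groups did not overlap for 5 genes, all lower in Acu, against 4.27% of all genes. The median log2 fold change was -0.92, with 88 genes lower and 1 higher (Cox7a2l), against 0.02 over all genes. Without Control 17 and Acu 4, 2 of the 89 genes fell, where limma called 4.44% of all genes, 3.55% in the lower direction, and the median was -1.52. The groups, then of 2 libraries each, did not overlap for 85 of the 89 genes in the lower direction, against 28.9% of all genes, and for 1 in the higher one, against 32.1%. At an unadjusted p under 0.05 there were 53, all lower, against 12.7% of all genes. Leaving out AIA 10 too, a library of neither group that enters through the filter and the shared estimate of the spread, gave 47 of the 89 lower, against 13.1% of all genes in either direction and 7.49% in the lower one.

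In the fit without Control 17 and Acu 4, 2 of the 89 genes fell, against 3.55% of all genes called lower. Both were accessory subunits of complex I. Ndufa10 had 17.03, 23.3 and 29.2 FPKM in Acu 4, 6 and 28, 37.7, 54.0, 37.6 and 41.4 FPKM in AIA 5, 10, 31 and 38, and 134, 87.7 and 16.5 FPKM in Control 15, 16 and 17. Acu lay below AIA in every library, and AIA below Control 15 and Control 16. The log2 fold change of Acu minus Control was -1.33 (SE 0.65, limma adjusted p = 0.681) over 10 libraries and -2.02 (SE 0.39, limma adjusted p = 0.0290) without Control 17 and Acu 4. Ndufb4 had 35.1, 22.1 and 34.7 FPKM in Acu, 40.1, 37.8, 30.7 and 29.5 FPKM in AIA and 106, 84.1 and 24.3 FPKM in Control. Its value without the 2 libraries was -1.74 (SE 0.38, limma adjusted p = 0.0425), and Acu overlapped with AIA. In that fit limma called 13 of 13 adipocyte, 4 of 19 muscle and 3 of 5 erythroid markers lower in Acu, and 6 of 12 cycling and 5 of 10 plasma cell markers higher. Leaving out Control 15 too keeps Control 16 as the only Control library, so that fit cannot show whether the 2 calls hold. When Control 15 was left out too, limma called 0 of the 89 genes and 0% of all genes, and the median of the 89 was -1.23, with 20 at an unadjusted p under 0.05, all lower, against 8.01% of all genes in that direction.

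AIA 10 was unlike the other AIA libraries in these genes. Its FPKM divided by the median of AIA 5, 31 and 38 had a median of 2.5 over the 89 genes, of which 80 were above 1. Over 12937 other protein-coding nuclear genes the median was 0.863, and 5610 were above 1. The ratio went with mRNA length in both sets. For mRNAs under 700 bases it was 3.68 over 32 of the genes and 2.21 over 281 others, and for 1000 to under 2000 bases it was 1.83 over 29 of the genes and 1.14 over 2820 others. From 2000 bases on it was 1.21 over 9 of the genes, fewer than 20, and 0.771 over 9272 others. In each length class the oxidative phosphorylation genes were above the others by median. Ndufa2, an accessory complex I subunit, reached 1032 FPKM in AIA 10, against 86.0, 65.1 and 75.4 FPKM in AIA 5, 31 and 38, and Atp5e, the epsilon subunit of ATP synthase, reached 829 FPKM, against 79.5, 65.9 and 52.6 FPKM. Genes that went the other way were Uqcrc2, with 5.67 FPKM in AIA 10 against 29.8, 42.1 and 47.7 FPKM, and Cox8a, with a ratio of 0.578. AIA 10 had the fewest reads and 15116 genes above 0, against 21224 to 24411 in the other libraries, and the part of library preparation in this pattern was not tested. Without AIA 10, Control 17 and Acu 4, an alternative chosen with the data in view, 61 of the 89 genes were called lower in AIA than in Control by limma, against 21.4% of all genes in either direction and 11.2% in the lower one.

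**Figure D4:**
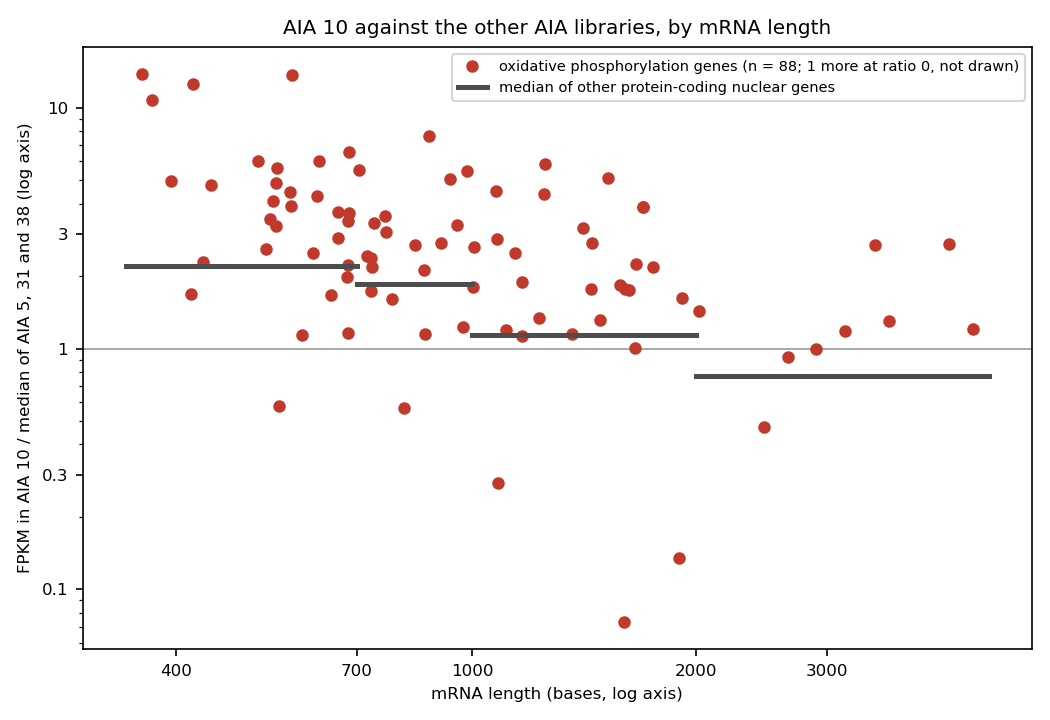
FPKM in AIA 10 divided by the median of AIA 5, 31 and 38 for each oxidative phosphorylation gene (dots), against the length of its main annotated mRNA, both on log axes. Grey bars are the medians of other protein-coding nuclear genes per length class, 2.21, 1.85, 1.14 and 0.771. Most dots are above 1, and the shortest mRNAs reach ratios above 10.

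Genes that work beside the 5 complexes were read in the same fits. Of 13 genes of the citric acid cycle, which feeds complexes I and II, limma called 9 lower in AIA than in Control without Control 17 and Acu 4 (0 of 13 over 10 libraries). Idh3a, a catalytic subunit of NAD-dependent isocitrate dehydrogenase, had 11.5, 11.4, 16.4 and 15.5 FPKM in AIA, against 98.5, 49.9 and 10.9 FPKM in Control, with a log2 fold change of -2.30 (SE 0.35, limma adjusted p = 0.00675) without the 2. Of 19 genes for electron carriers and other routes into ubiquinone, 9 were called lower and 0 higher in that fit, among them Etfdh, which passes electrons from fat oxidation to ubiquinone (-2.09, SE 0.44, limma adjusted p = 0.0204). Of 35 tested assembly factors that the name rule does not cover, 3 were called lower. Of 76 tested genes of the mitochondrial ribosome 0 were called, with a median of -0.29 and 6 at an unadjusted p under 0.05. Of 13 tested transcriptional regulators of mitochondrial genes 0 were called, with 4 at an unadjusted p under 0.05. For the ribosome and regulator lists, the background at that limma p was 4871 of 16067 genes, in either direction. Nrf1, whose product binds the NRF1 motif, stood at 0.42 (SE 0.24, limma adjusted p = 0.285), and Ppargc1a, a coactivator of mitochondrial biogenesis that was too low to be tested, had at most 0.367 FPKM in the Acu libraries and 0.410 FPKM in the AIA libraries, against 2.31 FPKM in Control 15, 1.56 FPKM in Control 16 and 0.0296 FPKM in Control 17. The background in that fit was 9.2% of genes called lower and 4.28% called higher.

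The 13 mitochondrially encoded subunits did not follow the nuclear ones in every library. Their summed FPKM was 12859.5, 11896 and 26733 in Acu 4, 6 and 28, 54579, 6478, 45747 and 30386.5 in AIA 5, 10, 31 and 38, and 103131, 138448 and 21489 in Control 15, 16 and 17. Control 15 and Control 16 were again the highest, but AIA 10, among the 3 highest for the nuclear genes, had the lowest mitochondrial sum. Single genes differed in this. In AIA 10 mt-Co1 had 231 FPKM, against 4511 FPKM or more in every other library. However, mt-Nd6 had 2961 FPKM in AIA 10, above AIA 38, Control 17 and all Acu libraries. For AIA against Control, limma called 0 of the 13 over 10 libraries. Without Control 17 and Acu 4 it called 2 lower in AIA, against 9.2% of all genes in that direction. These were mt-Nd3 and mt-Co3, with log2 fold changes of -1.63 and -3.05. Slc25a4, the ADP and ATP carrier of muscle, fell by 1.93 on the log2 scale in that fit (SE 0.42, limma adjusted p = 0.0229), whereas Slc25a5, the carrier of dividing cells, stood at 0.70 (SE 0.49, limma adjusted p = 0.374). Slc25a4 was highest in Control 16, at 449 FPKM, and Slc25a5 was lowest there, at 67.4 FPKM.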

How the data were processed

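RNA of popliteal lymph nodes was sequenced in 10 libraries (Acu 3, AIA 4, Control 3), and the authors deposited 1 table of FPKM per gene and library. The submitters' processing notes name, in no given order, the mm10 build, featureCounts 1.5.0-p3, HISAT2 2.0.5, DESeq2 1.16.1 and StringTie 1.3.3b. The strand setting of the counting was not given in the labels. FPKM times gene length gave whole reads for 100% of values (tolerance 0.01), and the depth given is their sum. Median-ratio scaling gave the same factor, 0.996, for all 10 libraries. The deposited values were thus already even by that measure, and libraries keep their relations as deposited. The log2(FPKM + 1) values were fitted with limma 3.58.1 in R 4.3.3 over all 3 groups with a trend, and p-values were adjusted by Benjamini-Hochberg over all genes with at least 0.5 FPKM in at least 3 libraries. A fold change on this scale understates that of low genes, and each SE is limma's moderated one. The fit was tested on simulated data. Exon overlap and mRNA length came from GENCODE vM21, where 81 of the 92 genes have the same start and end, and promoters from RefSeq. The members, lists and motifs were chosen with earlier results of these data known. Genes named were the isoforms and their counterparts, complex II, the 3 highest of each complex, the 3 largest changes each way and the called genes. Ndufs3, Ndufa12, Ndufb2, Ndufb8, Ndufab1, Uqcrc1, Uqcrc2 and Cox5b, where outside that rule, were chosen after their values were seen. A sham group that the protocols mention was not analysed here. The values of 1 gene are not reported here.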

Additional observations from a re-analysis of the deposited data

Results flagged for a closer look

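In the AIA group, AIA 10 stood apart from the other 3 libraries by Dixon's criterion, which chance meets in about 1 of 20 groups. It did so for 45 of the 92 genes, and AIA 10 was the high library in all 45. All 45 are among the 89 genes tested (50.6%), and of all 17010 genes tested 9.35% had AIA 10 apart as the high library and 2.77% as the low one. AIA 10 was also high in other short mRNAs, as given above, and the part of mRNA length in this count was not tested. The summed FPKM of AIA 10 stood apart for complex I at 5199, complex III at 1687, general complex IV subunits at 3698, ATP synthase at 2981 and the assembly and related genes at 760.4.

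Among the genes named, the complex I subunits set apart in AIA 10 were Ndufa2 at 1032 FPKM, Ndufa13 at 349.4 FPKM, Ndufb11 at 249.5 FPKM, Ndufb7 at 129 FPKM and Ndufab1 at 18.69 FPKM, with the assembly factor Ndufaf1 at 33.91 FPKM. Sdhb of complex II stood at 122.7 FPKM. In complex III Uqcrh, the hinge protein, stood at 504.4 FPKM, Uqcr10 at 326.1 FPKM and Uqcr11 at 263.4 FPKM. In complex IV Cox6a1 stood at 903.5 FPKM, Cox6b1 at 681.8 FPKM, Cox4i1 at 675.7 FPKM, Cox7a2 at 271.2 FPKM and Ndufa4 at 143.1 FPKM, with the isoform Ndufa4l2 at 12.65 FPKM. Cox7a2l, of the supercomplexes, stood at 651 FPKM. In ATP synthase Atp5e stood at 828.8 FPKM, Atp5h at 781.3 FPKM and Atp5k at 109.7 FPKM.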

How the results depend on the processing

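The alternative without AIA 10, Control 17 and Acu 4 and the one with voom were added after the data were seen. The alternative without Control 17, Acu 4 and Control 15 keeps Control 16 as its only Control library, so its counts do not test the others. For AIA against Control limma called 4 genes in all, against 2166 without Control 17 and Acu 4, 486 without Control 15 as well, 3386 without those 2 and AIA 10, 784 with only the 2 groups compared, 60 at an FPKM of at least 1, 46 with equal protein-coding sums, 1 with no filter, 0 with a pseudocount of 0.1 and 0 with voom. Of the 89 genes tested 0 were called, against 16 without Control 17 and Acu 4, 61 without those and AIA 10 and 1 with only the 2 groups. Leaving out 1 library gave 0 to 1708 genes, 0 to 6 of the 89, and medians of -1.15 to -0.08. Without Control 17 alone 956 genes and 6 of the 89 were called, and without Acu 4 alone 1708 and 2. The median was -1.38 without Control 17, Acu 4 and AIA 10, where Atp5e (-1.30), Ndufa2 (-1.41) and Ndufb7 (-0.97) were reversed from 0.19, 0.14 and 0.31, and the cause was not tested. For Acu against AIA no filter gave 2 genes, and leaving out 1 library gave 0 to 1 genes, 0 to 0 of the 89 and medians of -0.51 to -0.14. For Acu against Control the counts were 713 genes and 2 of the 89 without Control 17 and Acu 4, 2073 and 47 without AIA 10 as well, and 1 gene with no filter. Leaving out 1 library gave 0 to 299 genes, 0 to 1 of the 89 and medians of -1.47 to -0.48. Equal protein-coding sums put the median of all genes at 0.14 for Acu minus AIA and Acu minus Control, with -0.26 and -0.77 for the 89. Of 2400 single-gene values under alternatives 71 newly passed the threshold, 3 reversed, and 99 that were not called changed sign.

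No paired analysis was possible because the groups share no replicate numbers. The planned count models edgeR and DESeq2 were not run, since the deposited unit is FPKM. Groups of at most 4 libraries, and 2 libraries whose genes go against the labelled tissue, limit every comparison. The Control library with the highest fat markers also lacked lymphocyte genes, and it was kept in the fit that left out only those 2.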
